A study of Mus musculus with 6 samples.

Results

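Microtubule motors were followed in the fluorescent cells of the embryonic mouse hindbrain, as a set of 62 genes among the 18193 genes that the arrays measured with a single symbol. The set was chosen by symbol and not by level: the kinesin heavy chains with a numbered Kif or Kifc symbol, the kinesin-associated protein Kifap3, the kinesin light chains (Klc), the subunits of cytoplasmic dynein (Dync1, with the light chain families Dynll, Dynlrb and Dynlt) and the dynactin subunits Dctn1 to Dctn6. Kinesins under other symbols are not in the set. Each gene was read from the probe set (the group of short oligonucleotides that reports 1 transcript) with the highest mean over the 6 arrays. The 38 genes with several probe sets had 84 others, of which 45 had a difference of the same sign as the one used.

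Kinesins and dynein are enzymes that burn ATP to walk along microtubules. Most kinesins carry their cargo towards the plus ends, which lie outward in an axon, while cytoplasmic dynein, helped by dynactin, carries cargo back towards the cell body. Young motor neurons depend on both to extend an axon and to pull the nucleus forward as the cell migrates, and dividing progenitors use a different set of kinesins to build and drive the mitotic spindle.

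The cells came from dissected hindbrains of entire litters at E10.5 and were sorted for GFP. Both genotypes carried an IRES-tauGFP cassette in the Hoxb1 locus, so both made tauGFP, a fluorescent protein joined to the microtubule-binding protein tau, under control of that locus. The control group, Hoxb1-IRES-tauGFP (n = 3 arrays), made normal Hox-B1 protein, and the swap group (n = 3 arrays) made a different Hox protein from that locus in its place. Rhombomere 4, the segment of the hindbrain from which facial branchiomotor neurons arise, is the labelled tissue, and the series text calls the replicates independent and biological. Embryos were pooled by litter, and the sort could hold any cell type with an active Hoxb1 locus. Array values are given below as log2 intensity, always in the order of replicates 1, 2 and 3, and the arrays of the groups are called controls and swaps.

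The arrays had median intensities of 118 to 139 and correlated with each other at r of 0.885 to 0.907. On the first principal component, control array 1 (-48.6) and swap array 1 (-34.6) stood apart from the other 4 arrays (-0.486 to 30.1). The log2 signal of the 3′ control probe set minus that of the 5′ one, a sign of RNA quality, was largest on swap array 1, at 1.93 for Gapdh and 2.92 for Actb against 1.23 to 1.41 and 2.41 to 2.67 on the others. Markers of facial motor neurons were present in both genotypes, and so were neuron markers. Isl1 read between 13.63 and 14.03 in log2 intensity on all 6 arrays. Of the 5 facial motor neuron markers measured, 3 were higher in the swaps and 2 were lower. Phox2a had the largest difference of these, -0.50 (SE 0.31). It read 9.12, 9.74 and 8.96 in controls and 9.10, 8.70 and 8.52 in swaps, with overlap. The summed intensity of 8 macrophage markers ran from 472 to 17066 over the controls, and over the swaps it ran from 2354 to 4463; 0 of the 8 was at 0. The Hoxb1 probe set differed by -0.51 (SE 0.27, limma's adjusted p = 1.00). Where it lies in the transcript is unknown, and it is no check of the labels.

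No motor gene passed the test between the genotypes, and the median difference of the set was close to 0. limma called 0 of 62 motor genes at an adjusted p under 0.05, as it called 0 of all 45037 probe sets (a background of 0%). At an unadjusted p under 0.05 there was 1 motor gene, Kif21a (1.61% of the set), against 3.63% of all genes. The swap arrays lay entirely on one side of the control arrays for 5 motor genes (8.06%), against 8.85% of all genes, so neither share stood above the background. The median log2 difference, swap minus control, was 0.00 over the motor genes and 0.01 over all genes, with 31 motor genes higher and 31 lower. Adjusted p was 1.00 for every motor gene in this fit, and single values below are given with the 95% interval of the difference. With 3 arrays against 3, the smallest two-sided p of an exact permutation test is 0.1.

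How far a difference could be bounded depended on the signal. Of the 62 motor genes, 50 had a mean at or above the median of all probe sets (6.83 in log2 intensity), and for 36 of these (72.0%) the 95% interval lay within 2-fold in either direction, against 68.1% of all genes at that level. The other 14 were Klc1, Klc3, Klc4, Kif3b, Kif21a, Kif4, Kif18b, Kif20a, Kif23, Kif24, Kif2c, Dync1li1, Dynlrb2 and Dctn6. The 12 genes below the median level were Kif1a, Kif2b, Kif6, Kif9, Kif12, Kif14, Kif15, Kif17, Kif27, Kif28, Kifc3 and Kifc5b. Their median SE was 0.72, against 0.26 for the motor genes above it, and only Kif1a and Kif14 had an interval within 2-fold.

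**Figure D1:**
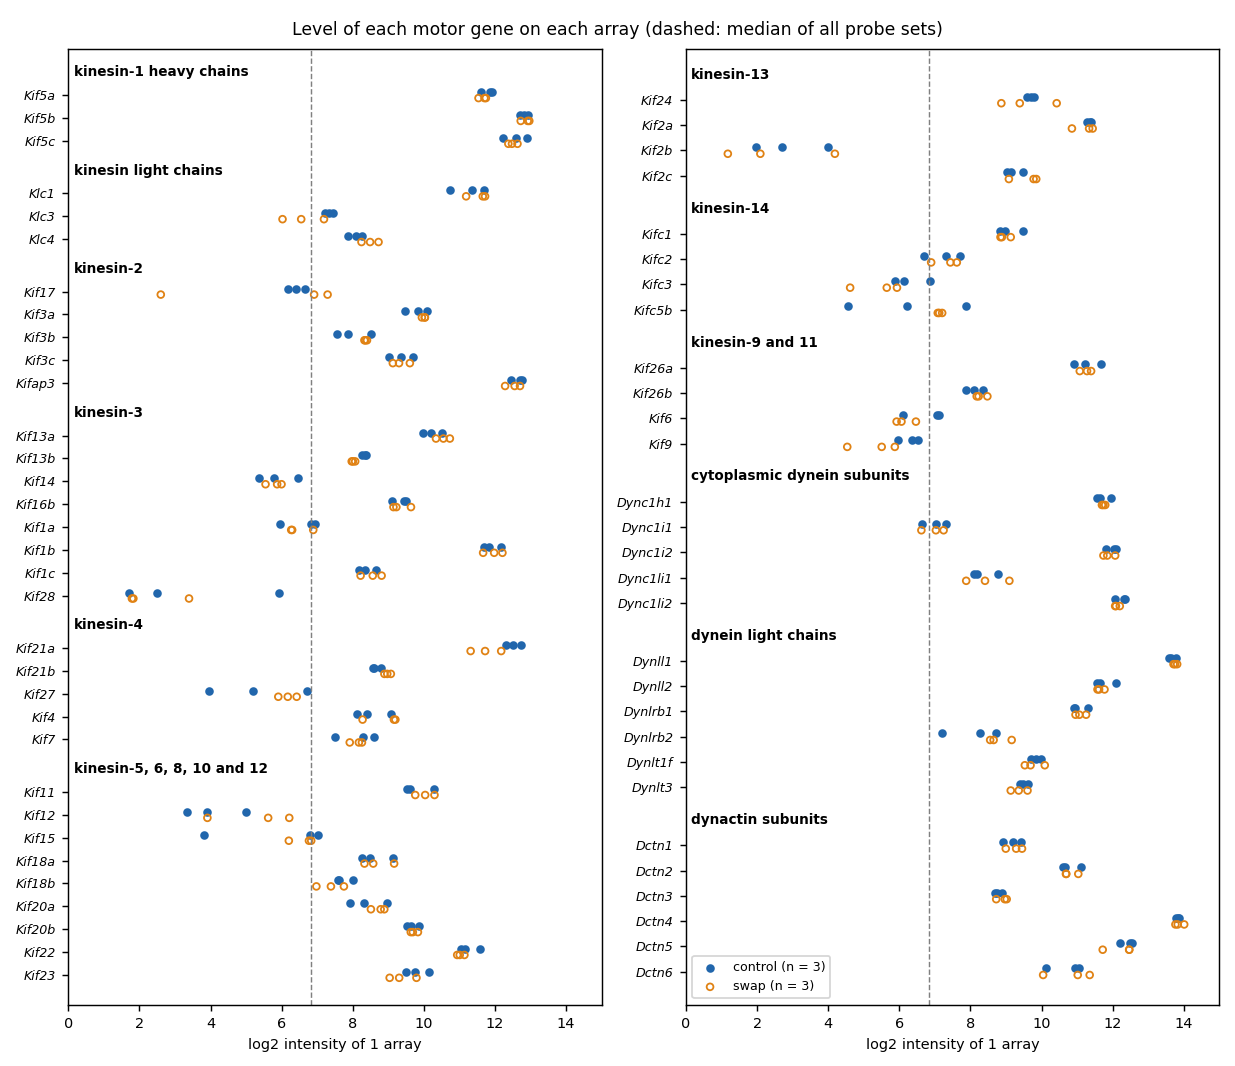
Log2 intensity (x axis) of each of the 62 motor genes (rows, grouped by family or complex) on each of 3 control arrays (filled points) and 3 swap arrays (open points). The dashed line is the median of all probe sets, 6.83; 12 genes have their mean below it, and levels of different genes are not comparable because each probe set binds with its own strength.

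Conventional kinesin, the main motor of anterograde axonal transport, had small differences with narrow intervals on the probe sets used. Its heavy chains come from 3 genes, of which Kif5a and Kif5c are enriched in neurons and Kif5b is made in most cells. Kif5b read 12.93, 12.82 and 12.69 in controls 1, 2 and 3 and 12.96, 12.92 and 12.72 in swaps 1, 2 and 3. The genotypes overlap across the whole range, and the difference was 0.05 (95% interval -0.47 to 0.58). Kif5a read 11.60, 11.92 and 11.86 in controls and 11.53, 11.70 and 11.74 in swaps, a difference of -0.14 (95% interval -0.67 to 0.40). Kif5c read 12.23, 12.89 and 12.60 in controls and 12.63, 12.37 and 12.48 in swaps, or 12.57 ± 0.33 and 12.49 ± 0.13 (SD, n = 3 each). All 3 heavy chain genes had intervals that exclude a 2-fold change on these probe sets. The other probe sets of Kif5b differed by -0.52 to 0.20, those of Kif5c by -0.85 to -0.19 and those of Kif5a by -0.61 and 0.15.

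The kinesin light chains, which link the heavy chains to their cargo, varied more. Klc1, the light chain typical of neurons, read 10.74, 11.70 and 11.35 in controls and 11.65, 11.19 and 11.72 in swaps. Control array 1 was the low one, and the difference of 0.26 (95% interval -0.57 to 1.09) became 0.00 without it. Klc4 read 7.87, 8.10 and 8.26 in controls and 8.49, 8.24 and 8.72 in swaps, with 1 swap array inside the control range and a difference of 0.41 (95% interval -0.20 to 1.01). Klc3 read 7.33, 7.21 and 7.45 in controls and 6.55, 7.19 and 6.02 in swaps. Its genotypes did not overlap, but swap array 2 lay just under the lowest control, and the difference of -0.74 (SE 0.35, 95% interval -1.60 to 0.11) did not pass limma's test. The difference was -0.46 without swap array 3 and -1.04 without swap array 2.

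Kinesin-2, the heterotrimer of Kif3a, Kif3b and the linker Kifap3, drives transport along the cilium and also along axons. Kifap3 read 12.46, 12.70 and 12.76 in controls and 12.28, 12.55 and 12.70 in swaps, overlapping values with a difference of -0.13 (95% interval -0.71 to 0.45). Kif3b read 7.55, 8.51 and 7.87 in controls and 8.40, 8.33 and 8.35 in swaps. The swap arrays were tightly grouped inside the control range, at a difference of 0.38 (95% interval -0.37 to 1.14). The other Kif3b probe set above the median level read 7.74, 7.99 and 7.42 in controls and 7.54, 6.93 and 7.62 in swaps. Its difference was -0.35 (95% interval -1.09 to 0.39), and the Kif3b probe sets below that level gave 0.95 and 0.38. Kif3a differed by 0.20 and Kif3c, an alternative partner of Kif3a, by 0.00. Kif17, a homodimeric member found in dendrites and cilia, had swap array 1 at 2.60 and the other 5 arrays between 6.17 and 7.29. The difference was -0.82 (95% interval -3.96 to 2.33). Its other probe sets differed by 1.05 and -0.99, and all Kif17 probe sets lay below the median level. On those 2, swaps 1, 2 and 3 read 2.95, 5.42 and 4.07, and 5.59, 5.12 and 3.65. The part of RNA quality in these values was not tested.

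Kinesin-3 motors carry vesicles over long distances, among them the precursors of synaptic vesicles (Kif1a and Kif1b) and endosomes (Kif16b). Kif1b read 11.68, 11.83 and 12.17 in controls and 11.66, 11.97 and 12.21 in swaps, overlapping values with a difference of 0.05 (95% interval -0.60 to 0.71). All 6 other probe sets of Kif1b had negative differences, down to -0.52, and with the probe sets averaged the gene differed by -0.15. Kif13b, which moves vesicles in axons and dendrites, read 8.27, 8.38 and 8.35 in controls and 8.0, 7.97 and 8.07 in swaps. Both genotypes were tightly grouped, the swap arrays all lay lower, and the difference was -0.32 (SE 0.20, 95% interval -0.81 to 0.17, limma's unadjusted p = 0.158). Among the other 3 probe sets of Kif13b the differences were -1.38, -0.19 and 0.18. Its relative Kif13a differed by 0.30 (95% interval -0.32 to 0.93), Kif1c by 0.13, and Kif16b by -0.01. The other probe sets gave -0.15, 0.70, 0.15 and -1.49 for Kif13a, 0.41, 0.03 and -2.59 for Kif1c, and 0.19 and -1.42 for Kif16b. The values of -1.49, -2.59 and -1.42 lay below the median level, and the arrays behind 0.70 did not overlap. Kif1a read low on all arrays (5.94 to 6.92) with a difference of -0.08, Kif14, a kinesin of cytokinesis, differed by -0.07, and Kif28 ranged from 1.71 to 5.91 in the control arrays alone.

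Kif21a, of the kinesin-4 family, had the smallest p of the 62 genes. It makes a motor that damps the growth of microtubule ends, and its human counterpart is mutated in a disorder of the nerves to the eye muscles. Kif21a read 12.51, 12.32 and 12.72 in controls 1, 2 and 3 and 11.72, 11.31 and 12.17 in swaps 1, 2 and 3. Every swap array was lower than every control array, with swap array 3 closest to them. The log2 difference was -0.78 (SE 0.30, 95% interval -1.52 to -0.04), or 0.582 times the control level, with limma's unadjusted p = 0.042 and adjusted p = 1.00. The other probe sets of the gene differed from each other in sign: one, at a level of 8.17 in the control arrays, was 0.50 higher in the swap arrays (SE 0.32), and the other, below the median level, was 1.11 lower by log2 (-1.11, SE 0.92). With the probe sets of each gene averaged, Kif21a differed by -0.46 (limma's unadjusted p = 0.331). Leaving out 1 array gave differences from -1.0 to -0.57, and the unadjusted p stayed under 0.05 only without swap array 3; it was 0.0858 without control array 1, 0.0589 without control array 2, 0.118 without control array 3, 0.0900 without swap array 1 and 0.122 without swap array 2.

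**Figure D2:**
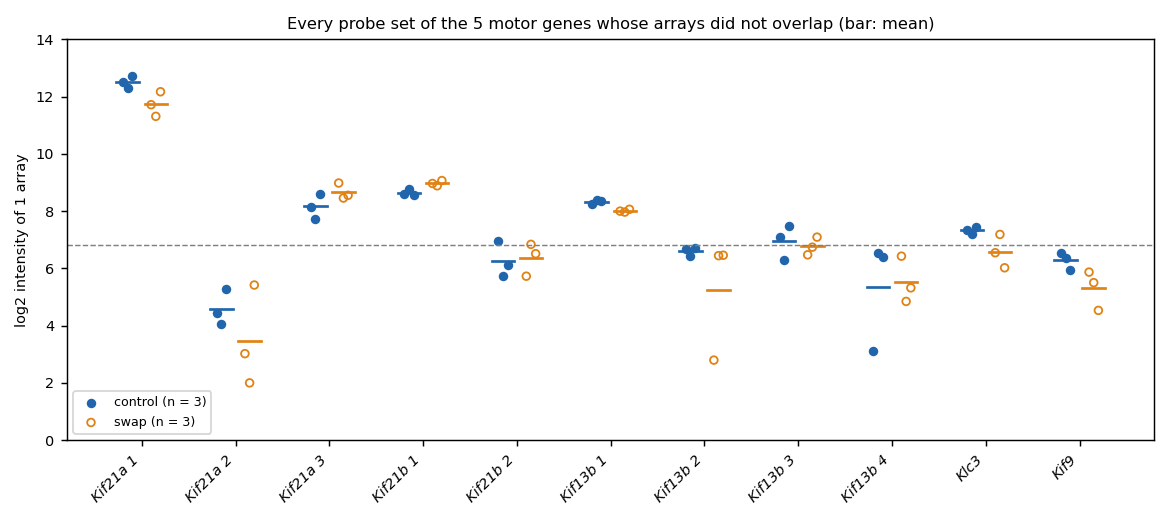
Log2 intensity (y axis) of every probe set of the 5 motor genes whose swap arrays (open points) and control arrays (filled points) did not overlap on the probe set used, which is the one numbered 1 where a gene has several. Bars are means of 3 arrays and the dashed line is the median of all probe sets; Kif21a is lower in the swap arrays on probe set 1, by -0.78, and 0.50 higher on probe set 3.

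Kif21b, the close relative of Kif21a, was the only separated motor gene with higher swap arrays. It read 8.59, 8.79 and 8.56 in controls and 8.97, 8.89 and 9.07 in swaps, without overlap and with a difference of 0.33 (SE 0.21, 95% interval -0.19 to 0.85). Its second probe set, below the median level, differed by 0.09. Kif7, which tunes Hedgehog signalling at the tip of the cilium, differed by -0.01 (95% interval -0.88 to 0.85), and Kif27, its relative, read between 3.95 and 6.72 in the control arrays. The chromosome-bound member of the family, Kif4, differed by 0.35 and is described with the mitotic motors.

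**Figure D3:**
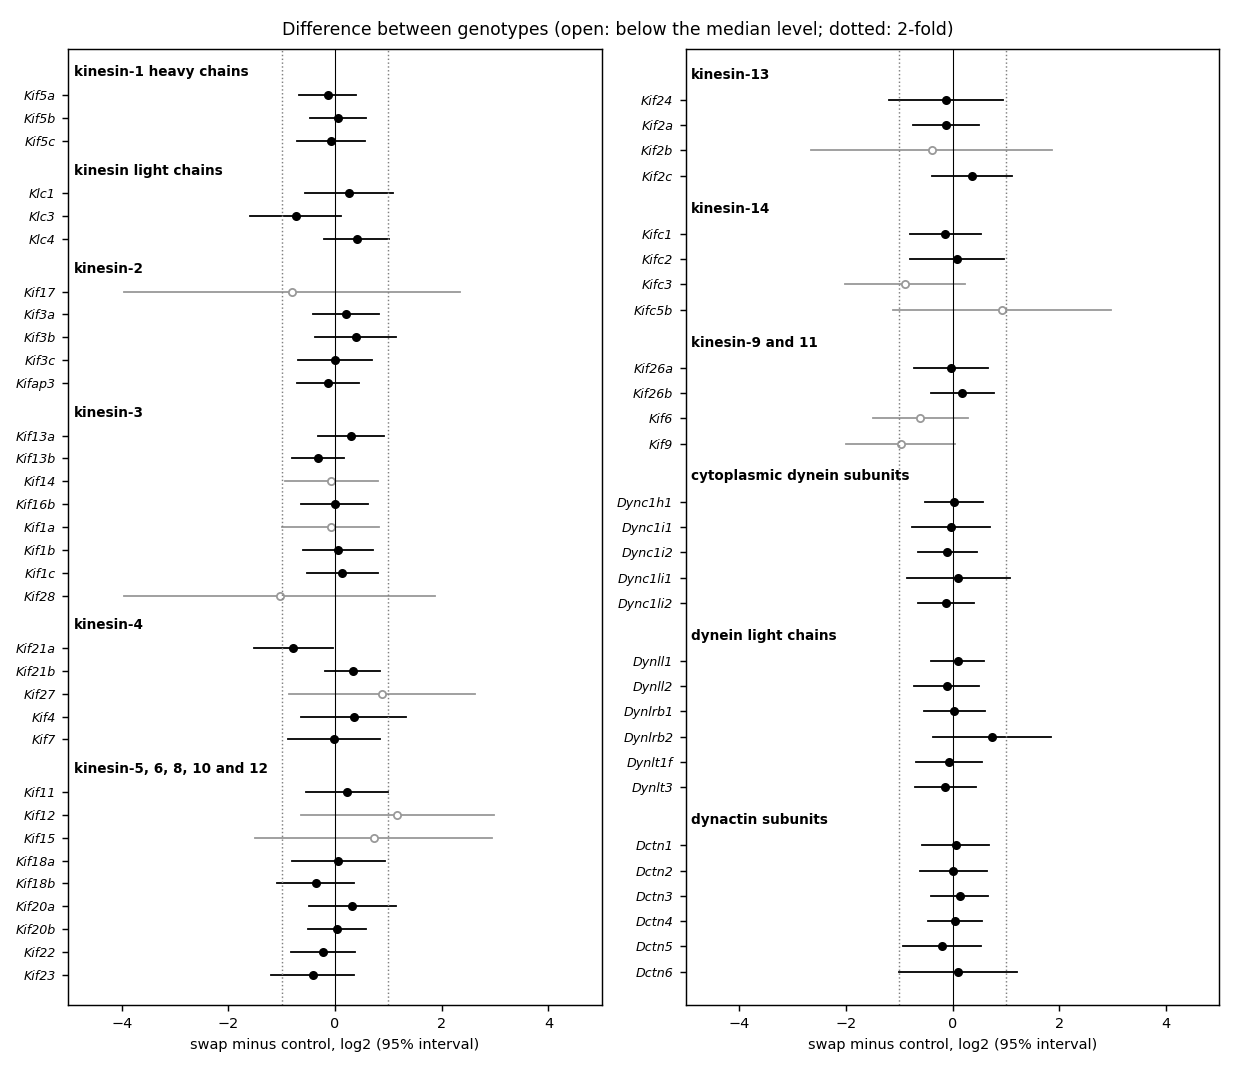
Log2 difference, swap minus control (x axis), with its 95% interval from limma, for each motor gene (rows). Open grey points lie below the median level and dotted lines mark 2-fold; the interval reaches zero for every gene except Kif21a (-1.52 to -0.04).

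The genes of retrograde transport had small differences. The 5 subunit genes of cytoplasmic dynein had differences from -0.12 to 0.11, and the 6 dynactin genes from -0.20 to 0.13. Dync1h1, the heavy chain that holds the motor itself, read 11.64, 11.95 and 11.55 in controls and 11.74, 11.70 and 11.79 in swaps, so the swap arrays fell inside the control range. Its difference was 0.03 (95% interval -0.51 to 0.57). Dync1li2, a light intermediate chain that takes part in cargo binding, read 12.05, 12.32 and 12.36 in controls and 12.09, 12.07 and 12.20 in swaps, with a difference of -0.12 (95% interval -0.65 to 0.40). The intermediate chains Dync1i1 and Dync1i2, on which dynactin docks, differed by -0.04 and -0.10, and the second light intermediate chain Dync1li1 by 0.11 with a wider interval (-0.86 to 1.08).

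Dynactin couples dynein to cargo and keeps it on the microtubule. Dctn4, a subunit at the pointed end of the dynactin filament, read 13.85, 13.85 and 13.77 in controls and 14.01, 13.83 and 13.76 in swaps. The values overlap, and the difference was 0.04 (95% interval -0.46 to 0.55); the 5 other probe sets of the gene scattered from -0.54 to 0.68. Dctn5, its neighbour at that end, read 12.21, 12.54 and 12.50 in controls and 11.72, 12.46 and 12.47 in swaps. On this probe set only swap array 1 was low, and without it the difference of -0.20 turned to 0.05. The gene's other probe set read 11.10, 11.34 and 11.39 in controls and 10.67, 11.07 and 11.14 in swaps. Its difference was -0.32 (95% interval -0.91 to 0.28), with swap arrays 1 and 2 under every control. The part of RNA quality in these values was not tested. Dctn1, the large subunit that grips the microtubule, and Dctn2, known as dynamitin, differed by 0.06 and 0.01. Dctn3 differed by 0.13 and Dctn6 by 0.10.

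Of the dynein light chains, Dynll1, a small hub protein that also binds many partners outside dynein, read 13.65, 13.77 and 13.57 in controls and 13.81, 13.75 and 13.71 in swaps. The difference was 0.10 (95% interval -0.40 to 0.60), and its 3 other probe sets gave -0.07, 0.06 and 0.04. Dynll2, Dynlrb1, Dynlt3 and Dynlt1f differed by -0.11, 0.03, -0.14 and -0.07, each with an interval within 2-fold. The Dynlt1f value comes from a probe set of a kind that can bind related transcripts, and Dynlt1a, Dynlt1b and Dynlt1c were named by shared probe sets alone, so these gene copies cannot be told apart. Dynlrb2, a roadblock light chain found in ciliated tissues, stood out from the other light chains in spread. It read 7.21, 8.72 and 8.25 in controls and 8.55, 8.65 and 9.16 in swaps, a difference of 0.73 (SE 0.45, 95% interval -0.38 to 1.84) that fell to 0.30 without control array 1.

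Markers of motile cilia had differences in both directions. The summed intensity of 6 measured markers of 8 ran from 2055 to 2576 over the controls, and over the swaps it ran from 2747 to 3407, and most of it came from Ccdc39 on every array. Of the 6 markers 4 had a difference above 0, while Rsph1 and Tekt1 differed by -0.23 and -0.03. Foxj1, the master factor of motile cilia, read 3.34, 4.24 and 5.85 in controls and 6.29, 6.77 and 5.97 in swaps, all below the median level, with a difference of 1.87 (SE 0.67, limma's unadjusted p = 0.0333, adjusted p = 1.00). Ccdc39, a ruler protein of the ciliary axoneme, differed by 0.41 (SE 0.23, limma's unadjusted p = 0.130). The sum of 8 endothelial markers, all below the median level, also did not overlap: it ran from 358 to 529 over the controls and from 552 to 644 over the swaps, with 7 of the 8 above 0. The kinesins Kif9 and Kif6, which are known from motile cilia and flagella, had negative differences. Kif9 read 6.54, 6.35 and 5.95 in controls and 5.87, 5.50 and 4.53 in swaps, groups that did not overlap, with a difference of -0.98 (SE 0.41, 95% interval -1.99 to 0.04). Kif6 read 7.06, 6.10 and 7.10 in controls and 6.46, 6.06 and 5.92 in swaps, with overlap and a difference of -0.61 (SE 0.36). The part of ciliated or endothelial cells in these values was not tested.

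Most motors of cell division varied together over the control arrays, and less uniformly over the swap arrays. Of the 14 mitotic motors, 11 were at or above the median level and 0 had separated arrays. The median difference of the 14 was 0.05. Of those 11 genes, the number above their own 6-array mean was 11, 2 and 3 on control arrays 1, 2 and 3. On swap arrays 1, 2 and 3 it was 4, 9 and 1. Kif11, which slides spindle microtubules apart, read 10.30, 9.52 and 9.61 in controls and 10.30, 10.03 and 9.76 in swaps. Control array 1 and swap array 1 were highest, and the difference was 0.22 (95% interval -0.55 to 0.99). Kif23, a part of the centralspindlin complex of cytokinesis, read 10.15, 9.48 and 9.75 in controls and 9.30, 9.79 and 9.04 in swaps. Its difference was -0.42 (95% interval -1.19 to 0.35), again with control array 1 on top, and its other probe sets gave 0.35 and 0.09. Kif22, a motor that pushes chromosome arms, read 11.57, 11.15 and 11.03 in controls and 11.01, 10.93 and 11.14 in swaps (difference -0.23), and its other probe sets gave 0.38 and 0.18. The Kif22 probe set used is of the kind that can bind related transcripts.

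Other kinesins of this list had differences in both directions. Kif2c, which takes microtubules apart at kinetochores, read 9.48, 9.01 and 9.14 in controls and 9.78, 9.85 and 9.08 in swaps, a difference of 0.36 (95% interval -0.39 to 1.11) with overlap. Its probe set is also of the kind that can bind related transcripts. Kif20a, of the central spindle, differed by 0.33 and Kif4 by 0.35. Kif18b, a kinesin of astral microtubules, differed by -0.36, and Kif24, a kinesin of the centriole, by -0.13. Kif20b, Kif18a, which aligns chromosomes, and Kifc1, a minus-end motor of the spindle pole, differed by 0.04, 0.06 and -0.14. Another Kif20b probe set above the median level read 8.55, 8.73 and 8.70 in controls and 7.87, 8.36 and 8.25 in swaps. These did not overlap, at a difference of -0.50 (95% interval -1.08 to 0.08), while the Kif20b probe sets below that level gave 1.01 and 0.44. Kif2a, a microtubule depolymerase of both neurons and spindles that was not counted among the 14, read 11.26, 11.39 and 11.36 in controls and 10.85, 11.34 and 11.44 in swaps. On this probe set swap array 1 was again the low one, and the difference of -0.13 was 0.05 without it. The other Kif2a probe set above the median level read 11.06, 11.20 and 11.35 in controls and 10.02, 11.01 and 11.14 in swaps. Its difference was -0.48 (95% interval -1.37 to 0.41), and the probe sets of the gene below that level gave 0.27, 0.77 and -1.90. Kif15, a second motor of spindle poles, lay below the median level, where the controls alone ranged from 3.8 to 7.02 beside a difference of 0.72.

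Control array 1 was the array that these genes shared. All 11 mitotic motors above the median level were above their own 6-array mean on it, 6 of them had their highest value there, and their median deviation was 0.38 in log2. On control arrays 2 and 3 the median deviation was -0.10 and -0.20, and on swap arrays 1, 2 and 3 it was -0.13, 0.20 and -0.16. The 25 measured mitosis genes that are not kinesins had deviations of 0.36, -0.25 and -0.13 on the control arrays and 0.11, 0.14 and -0.18 on the swap arrays. Both lists were thus high on control array 1 and swap array 2, and they differed in sign on swap array 1. The summed intensity of these mitosis genes ran from 61243 to 90490 over the controls, and from 61480 to 78396 over the swaps. In sorted cells, fewer cells of a type and less RNA per cell cannot be told apart.

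The transport motors and the neuron markers had the opposite order on that array. Of 15 axonal transport motors above the median level, 11 were below their own mean on control array 1, with a median deviation of -0.23, and all 13 neuron markers were below theirs, with a median of -0.25. On the other arrays the transport motors had deviations of 0.13, 0.07, 0.12, -0.03 and 0.12 and the neuron markers 0.11, 0.05, 0.04, -0.16 and 0.19. Swap array 2 was the second array on which both were below 0. Markers of other cell types were low on control array 1 too: the median deviation was -2.46 for 4 macrophage markers, -0.68 for 7 branchial mesenchyme markers and -0.37 for 4 erythroid markers. On swap array 1 these were -0.41, -0.41 and -0.82. The 5 facial motor neuron markers were not lowest on control array 1. Their median deviation was -0.04, 0.00 and -0.06 on the control arrays and 0.22, -0.14 and -0.07 on the swap arrays. limma's array weight was lowest for control array 1, at 0.698, against 0.815 to 1.23 for the others. The part of the cell mixture and of array quality in the order of the motors was not tested. The median difference between genotypes was 0.00 for the 17 measured transport motors and 0.02 for the neuron markers.

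**Figure D4:**
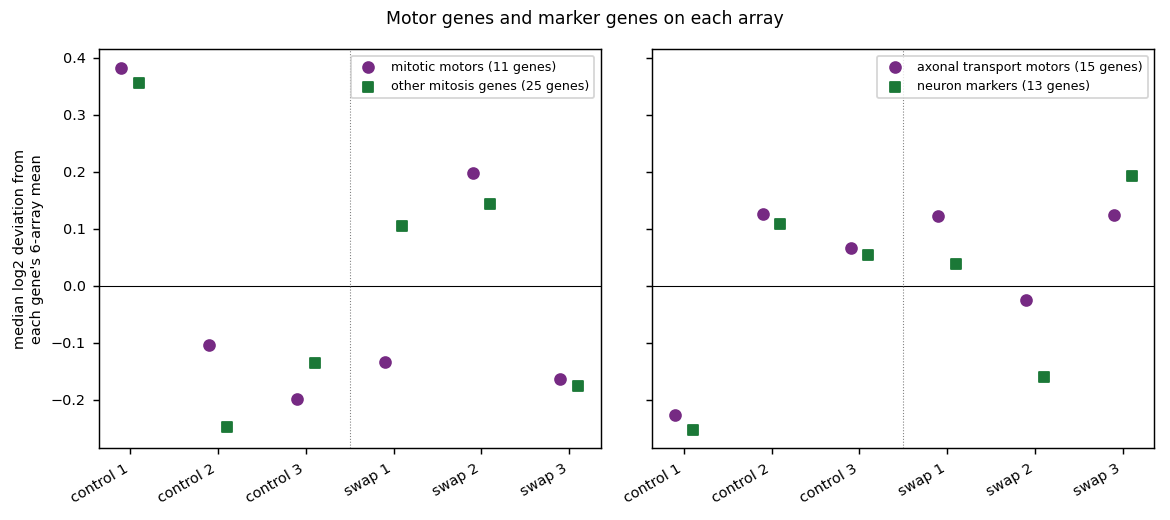
Median log2 deviation from each gene's own 6-array mean (y axis) on each array (x axis), over the genes at or above the median level. Left, mitotic motors (circles) and other mitosis genes (squares), both highest on control array 1 at 0.38 and 0.36; right, axonal transport motors and neuron markers, both lowest on that array at -0.23 and -0.25.

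The promoters of some mitotic motors are shown as a description of their sequence. Whether their motifs go with the order of these genes over the arrays was not tested. Genes that peak in mitosis often carry a cell cycle genes homology region (CHR, searched as TTTGAA or TTCGAA on both strands), to which the MuvB complex binds, and CCAAT boxes (CCAAT on both strands), to which NF-Y binds; the motifs can overlap by at most 1 base. In the 150 bases before the transcript start (RefSeq, GRCm38.p6), 50 of the 62 motor genes and 13 of 14 mitotic motors had an entry; 5 of the 13 windows held a CHR, 9 a CCAAT box and 3 both. Over all 32851 windows of that length the shares were 9.70% for a CHR, 24.5% for a CCAAT box and 2.43% for both, and over the 44 windows of 37 other motor genes 6.82%, 25.0% and 2.27%. The 3 promoters with both motifs follow, with the motifs in capitals: Kif11 at chr19:37376232-37376381 on the plus strand, Kif22 at chr7:127042421-127042570 and Kif24 at chr4:41464849-41464998, both on the minus strand.
Kif11: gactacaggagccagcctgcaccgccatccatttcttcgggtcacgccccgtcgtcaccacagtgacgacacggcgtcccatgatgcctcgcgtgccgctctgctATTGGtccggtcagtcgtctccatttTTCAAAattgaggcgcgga
Kif22: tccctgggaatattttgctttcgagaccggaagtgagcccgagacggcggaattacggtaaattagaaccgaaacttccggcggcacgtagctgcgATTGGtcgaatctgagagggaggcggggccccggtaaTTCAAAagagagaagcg
Kif24: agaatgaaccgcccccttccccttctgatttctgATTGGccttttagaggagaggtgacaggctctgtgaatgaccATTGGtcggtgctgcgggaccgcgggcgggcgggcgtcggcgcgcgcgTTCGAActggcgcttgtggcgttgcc

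In each of these the CHR lay close to the start, with its first base 19, 17 and 26 bases before it, and the CCAAT boxes lay farther out. A match describes letters in a window and not a bound site. On the probe sets used, Kif11 and Kif22 had their highest value on control array 1, Kif11 level with swap array 1. Kif24 read 9.70, 9.59 and 9.78 in controls and 8.87, 10.42 and 9.39 in swaps. The other Kif22 probe sets read 9.48 and 10.25 on control array 1, against 9.52 and 9.99 on swap array 2. The promoters of Kifc1 (chr17:33890634-33890783, minus strand) and Kifc5b (chr17:26916941-26917090, plus strand) are shown because the genes are near copies whose upstream windows share an identical run of 51 bases; both hold 2 CCAAT boxes and no CHR.
Kifc1: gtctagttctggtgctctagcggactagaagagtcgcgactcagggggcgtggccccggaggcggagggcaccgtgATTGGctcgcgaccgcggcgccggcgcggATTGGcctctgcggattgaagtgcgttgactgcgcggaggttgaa
Kifc5b: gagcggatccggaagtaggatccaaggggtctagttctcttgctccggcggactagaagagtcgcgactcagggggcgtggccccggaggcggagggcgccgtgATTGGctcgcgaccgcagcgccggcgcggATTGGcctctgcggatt

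The Kifc1 probe set is of a kind that can bind more than 1 transcript, so these copies may not be told apart. Kifc1 read 9.49, 8.96 and 8.82 in controls and 8.84, 9.13 and 8.88 in swaps, and Kifc5b 7.88, 6.20 and 4.55 against 7.08, 7.20 and 7.12. Both were highest on control array 1.

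The few members outside these groups had low signal or small differences. Kifc3, a minus-end motor known from epithelial cells, read 6.85, 6.13 and 5.88 in controls and 5.93, 4.62 and 5.65 in swaps, overlapping at 1 array, with a difference of -0.89 (95% interval -2.02 to 0.23). Kif12 read 3.91, 3.33 and 4.99 in controls and 3.91, 5.62 and 6.21 in swaps, a difference of 1.17 (95% interval -0.64 to 2.97) at signals where the spread within a genotype was as wide. Kif26a, which restrains signalling by the GDNF receptor Ret in enteric neurons, read 10.92, 11.68 and 11.23 in controls and 11.39, 11.07 and 11.28 in swaps, with a difference of -0.03. Kif26b differed by 0.18, Kifc2 by 0.08 and Kif2b, below the median level, by -0.40.

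Cofactors, adaptors and tracks of the motors gave no call either. Of 36 listed cofactors and cargo adaptors 32 were measured, 0 passed limma's adjusted test and the median difference was 0.01. Among the 32, 1 had an unadjusted p under 0.05, against 3.63% of all genes. The arrays did not overlap for 3 of them, against 8.85% of all genes. The gene under 0.05 was Ppfia4, a liprin scaffold, which read 7.36, 7.78 and 7.30 in controls and 6.50, 6.88 and 5.78 in swaps, without overlap (difference -1.10, SE 0.36, limma's adjusted p = 1.00). Mapk8ip3, an adaptor between kinesin-1 and its cargo, was higher in all 3 swap arrays by 0.50 (SE 0.24), and Capza1, a capping protein of the dynactin filament, differed by 0.00. Ppfia4 and Mapk8ip3 were each read from 1 of 3 probe sets. Of the 38 microtubule proteins 35 were measured and 0 passed, with a median of 0.05. Tubgcp2, a part of the complex that nucleates microtubules, differed by 0.62 (SE 0.30), Camsap1, which caps minus ends, by 0.42 (SE 0.23), and the tubulin Tuba1a by -0.02. Mapt, the gene of tau, read 7.33, 8.5 and 8.11 in controls and 7.58, 7.49 and 7.79 in swaps (difference -0.36, SE 0.35); whether its probes also read the tau of the reporter is not known here. Of 23 motors outside the set, such as ciliary dyneins and myosins, 18 were measured, 0 passed and the median was 0.08, with Kifbp, a kinesin-binding protein, at 0.31 (SE 0.21), Dnah5 at 0.57 (SE 0.37) and Myh9 at 0.08.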

How the data were processed

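The authors deposited 1 linear intensity per probe set for each of 6 arrays; the submitters' processing notes name affy, while the version and the background and summary steps were not given in the sources used here. Each deposited column has a 2% trimmed mean of 500, so arrays had been scaled. No detection calls, scanner files or batches were used here. log2 was taken of the deposited intensity, and 64 array control probe sets were left out, leaving 45037. The platform's probe table gave the names; all 62 motor symbols matched RefSeq. Differences were fitted over all probe sets with limma 3.58.1 in R 4.3.3 and adjusted by Benjamini-Hochberg, without a replicate block. The script was tested on simulated data. Motor genes, lists and the naming rule (in each family the smallest p and the highest mean, plus 5 per direction; from other lists the 2 smallest p and the highest mean) were chosen with earlier results of these data known. Other members are named to account for the set, and genes of other lists only beside a motor result. The text does not name the Hox protein of the swap group. Leaving out both replicate 1 arrays was chosen after seeing the data; the other alternatives were a replicate block, quantile normalization, a filter on level, centring on the median, a trended robust prior, array weights, an offset of 64, the mean over probe sets, a threshold of 0.10 and leaving out each array.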

Additional observations from a re-analysis of the deposited data

How the results depend on the processing

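limma called 0 probe sets and 0 motor genes under all 16 alternatives that gave these counts; the smallest adjusted p in any was 0.241. Motor genes at an unadjusted p under 0.05 numbered 2 with the replicate block (Kif21a and Kif9), 2 with the filter at the median level (Kif21a and Klc3), 0 with the mean over probe sets and 0 without both replicate 1 arrays, and from 0 to 2 with 1 array left out. The median difference of the set ranged from -0.044 to 0.048 with 1 array left out. Same-numbered arrays deviated together at r of 0.234, 0.0313 and 0.224. Control arrays 1 and 3 deviated most like the swap array of their own number, and control array 2 most like swap array 3. These values do not settle whether the numbers mark pairs. The main fit took no pairs, and the replicate block changed no other call. Of 371 values of the 25 genes of the naming rule, 18 turned in sign, in differences that had not passed. Signal over background limits the 12 genes below the median level.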
